A study of Mus musculus with 12 samples.

Results

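The genes described here are 10 genes of the airway mucus layer, picked by name from the 55450 genes of the count table and not by their values. They are 6 mucins (Muc1, Muc4, Muc5ac, Muc5b, Muc16 and Muc20), the goblet-cell transcription factor Spdef, the goblet-cell secreted protein Clca1, and the secretoglobins Scgb1a1 and Scgb3a2. The set holds no folding enzyme, so the genes that fold mucins, such as Agr2, are described as a list of their own. RNA-seq was carried out on cultured type II alveolar epithelial (AT2) cells of C57BL/6 mice of 6 to 8 weeks. Cells came from AhRfl/fl mice, whose aryl hydrocarbon receptor (AhR) gene is floxed, or from Sftpc-Cre;AhRfl/fl mice, which carry the same floxed gene together with a Cre recombinase made from the surfactant protein C promoter, so the controls are floxed as well. Cells of each genotype received either PBS or an extract of cockroach (CRE, 50 µg/ml) for 24 h, which makes 4 groups of 3 libraries. The cells were taken from dispase-digested lung by removing cells that carry CD16/32, CD45, Ter119 or Sca-1. Cells that stuck to dishes coated with mouse IgG were then left behind. The sources used here name no other marker used to remove cells. Whether the 3 libraries of a group came from separate animals, and whether animals were pooled, is not given in the sources used here, and p-values then measure only the spread between these libraries.

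Mucins are long glycoproteins whose serine- and threonine-rich stretches are coated with O-linked sugars. Muc5ac and Muc5b are secreted by goblet and club cells and form the gel of airway mucus, whereas Muc1, Muc4, Muc16 and Muc20 are anchored in the cell membrane. Spdef switches on the goblet-cell programme, Clca1 is secreted with mucus, and the secretoglobins are small proteins that club cells release into the airway lining fluid.

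Library totals ran from 68878065 to 80935797 counts. Sftpc, which defines AT2 cells, stood at 2772 to 5465 FPKM, and all 8 AT2 markers of the list had counts. Ahr itself was at 42.9 to 56.2 CPM (counts scaled to library size, with TMM factors) in AhRfl/fl cells and 37.7 to 51.5 CPM in Sftpc-Cre;AhRfl/fl cells. Which exons Cre removes is not given in the sources used here, and the count of the whole gene does not check the deletion. Cyp1b1, a target gene of AhR, was at 344 to 465 CPM in AhRfl/fl cells and 31.7 to 63.9 CPM in Sftpc-Cre;AhRfl/fl cells, with no overlap. In bulk libraries, fewer cells of a type and less RNA per cell cannot be told apart.

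Compared per length, as the deposited FPKM (fragments per kilobase of transcript, scaled to library size), the 10 genes covered a very wide range. Scgb1a1 came first, with a median of 9255 FPKM over the 12 libraries (7342 to 15747), and was the top gene of all by FPKM in every library. By count it ranked from 1 to 7 and took 0.389% to 0.834% of a library. Scgb1a1, the main secreted protein of club cells, stood 1.43 to 5.68 times above Sftpc by FPKM, within each library. Muc1 followed at 65.1 FPKM (31.8 to 120.5), then Scgb3a2 at 2.80 (2.13 to 3.77), Muc4 at 2.66 (2.00 to 4.10), Muc20 at 1.19 (0.610 to 2.28) and Spdef at 0.244 (0.119 to 0.385). Muc16 had a median of 0.0229 FPKM, Muc5ac of 0.00847, Muc5b of 0.00746 and Clca1 of 0. Down to Muc16, each gene lay above the next of this order in all 12 libraries, apart from the neighbours Scgb3a2 and Muc4, of which Scgb3a2 was the higher in 6 of 12. Muc16 was above Muc5ac in 10 of 12 libraries and Muc5ac above Muc5b in 7 of 12, and Muc5b was above Clca1 in 8 of 12, so the order of the lowest genes is not resolved.

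**Figure D1:**
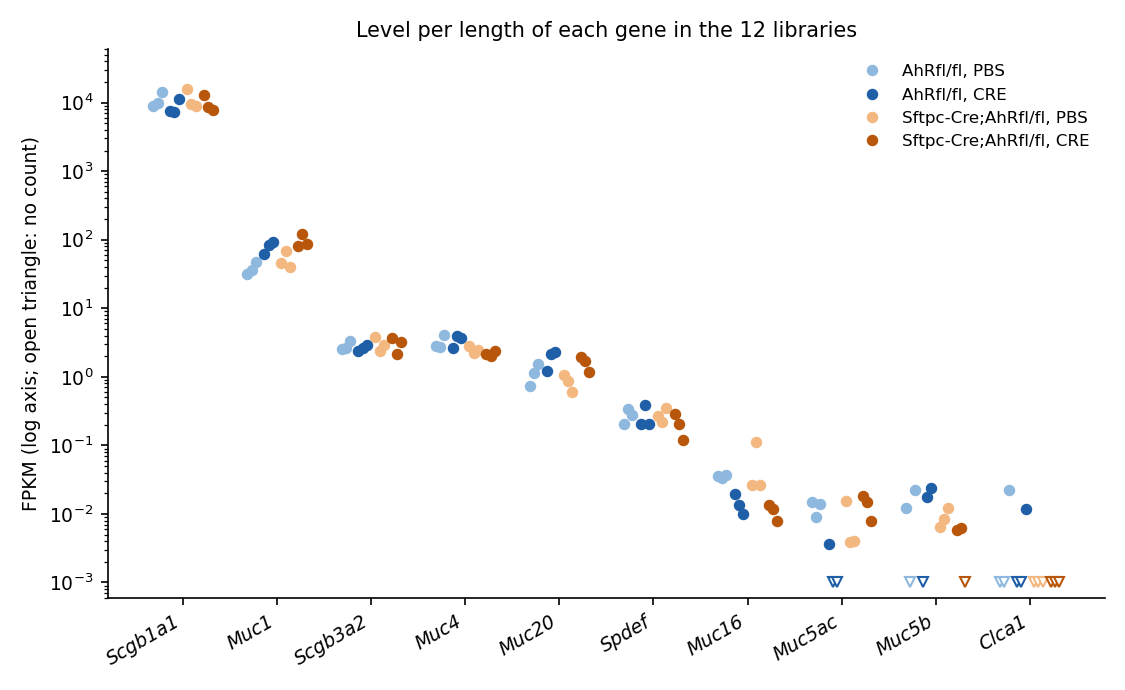
FPKM of each of the 10 genes on a log axis in the 12 libraries, coloured by group, with an open triangle at the foot for a library with no count. Scgb1a1 sits at 7342 to 15747 FPKM, Muc1 at 31.8 to 120.5 FPKM, and Muc5ac, Muc5b and Clca1 near or at 0.

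Club-cell genes did not share the level of Scgb1a1. Scgb3a2, the other secretoglobin of the set, was 2461 to 4192 times lower by FPKM in the same library, and Cyp2f2, a cytochrome P450 that defines club cells in the mouse, was 1127 to 2033 times lower, at 4.69 to 8.75 FPKM. Scgb3a1, a further secretoglobin, ranged from 0.353 to 92.5 FPKM, and its 2 lowest libraries were replicate 1 of AhRfl/fl cells with PBS (34 counts) and with CRE (19 counts). The same 2 libraries held 26 and 25 counts of Bpifa1, a secreted antimicrobial protein of the upper airway, against 2248 to 13619 counts in the other 10. Scgb1a1 did not fall to a like extent there, but its 4693 and 3969 CPM were in the low part of its range, 3959 to 8069 CPM. Cyp2f2 was likewise in the low part of its range there, at 11.1 and 10.4 CPM, with a highest value of 19.2 CPM.

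The first question of the design was how CRE changed these genes. Muc1 rose about 2-fold with CRE averaged over genotypes. Muc20 was higher and Muc16 lower in every CRE library than in the PBS library of the same number, and Scgb1a1 was lower by a small amount. Of the 10 genes 9 passed the filter on low counts and were tested, and Clca1 was not. The quasi-likelihood test of edgeR, adjusted by Benjamini-Hochberg over 20612 genes, called 0 of the 9 in AhRfl/fl cells, where it called 0.233% of all genes, and 0 of 9 in Sftpc-Cre;AhRfl/fl cells, where it called 0.262%. At an unadjusted p below 0.05 there were 3 and 3, against 9.36% and 6.48% of all genes. limma with the same adjustment called 0 and 0, and DESeq2 called 1 (Muc1) and 2 (Muc1 and Muc16), against 1.99% and 1.11% of all genes. With CRE averaged over the genotypes edgeR called 1 of 9, Muc1, against 1.1% of all genes, with 3 at an unadjusted p below 0.05 (11.1%), and DESeq2 called 3 (Muc1, Muc16 and Muc20; 3.37%). Under a looser rule, which asks for a log2 fold change beyond 0.5 in either direction and an unadjusted limma p below 0.05, 3 of 9 passed in AhRfl/fl cells (Muc1, Muc5ac and Muc16; 4.11% of all genes) and 3 of 9 in Sftpc-Cre;AhRfl/fl cells (Muc1, Muc16 and Muc20; 3.38%). The median log2 fold change of the 9 was -0.04 in AhRfl/fl cells and -0.18 in Sftpc-Cre;AhRfl/fl cells, beside -0.00118 and -0.00265 over all genes.

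Libraries of the same replicate number were alike in the CRE and PBS groups of a genotype, so a second fit paired them within genotype. Whether such libraries share an animal or a cell preparation is not given in the sources used here. The pairing was thus chosen from these same data. This fit called 3 of 9 in AhRfl/fl cells (Muc1, Muc20 and Scgb1a1; 3.63% of all genes) and 2 of 9 in Sftpc-Cre;AhRfl/fl cells (Muc1 and Muc20; 2.13%). Averaged over genotypes it called 4 of 9 (Muc1, Muc16, Muc20 and Scgb1a1), against 6.59% of all genes. Across the 6 pairs, Muc1 and Muc20 were higher with CRE in 6 of 6 and Muc16 and Scgb1a1 lower in 6 of 6, whereas 14.4% of all genes went one way in 6 of 6 (7.57% higher and 6.79% lower).

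**Figure D2:**
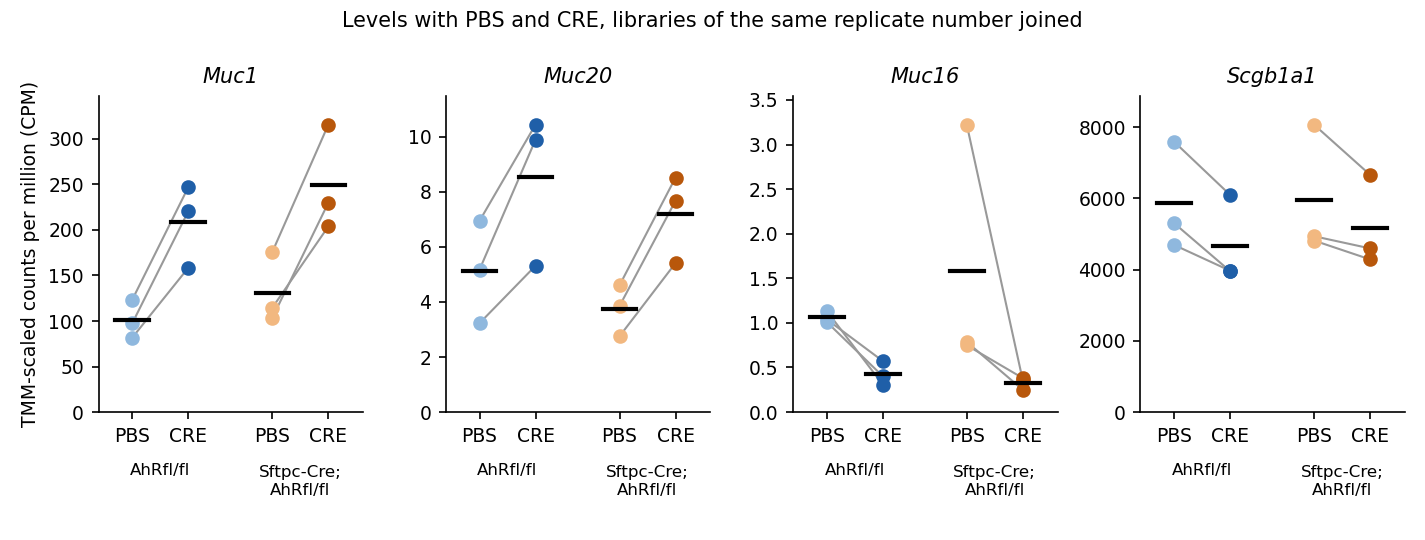
TMM-scaled CPM of Muc1, Muc20, Muc16 and Scgb1a1 with PBS and CRE in each genotype, with 1 point per library, a black bar at the mean and a grey line joining libraries of the same replicate number. Every line rises for Muc1 and Muc20 and falls for Muc16 and Scgb1a1, and the Muc16 point at 3.22 CPM is replicate 2 of Sftpc-Cre;AhRfl/fl cells with PBS.

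Muc1 (ENSMUSG00000042784, GRCm38 chromosome 3, 89229057 to 89233381, plus strand) is a short membrane mucin of glandular and alveolar epithelium. In AhRfl/fl cells its levels were 81.8, 97.6 and 123 CPM with PBS and 158, 221 and 247 CPM with CRE. In Sftpc-Cre;AhRfl/fl cells they were 115, 176 and 103 CPM with PBS and 204, 316 and 229.9 CPM with CRE. In each genotype the lowest CRE library lay above the highest PBS library, as for 16.5% of all genes in AhRfl/fl cells and 11.8% in Sftpc-Cre;AhRfl/fl cells. The log2 fold change was 1.05 ± 0.25 (SE) in AhRfl/fl cells and 0.93 ± 0.25 in Sftpc-Cre;AhRfl/fl cells, with edgeR adjusted p of 0.178 and 0.317. Paired within genotype the adjusted p from edgeR was 0.00188 and 0.00265. Averaged over genotypes Muc1 rose by 0.99 ± 0.18 on the log2 scale (edgeR adjusted p = 0.0260), and the interaction of CRE with genotype was -0.12 ± 0.35 (edgeR adjusted p = 1). The averaged call was lost when any 1 of 7 libraries was left out, with adjusted p of 0.0540 to 0.0809: replicates 1 and 2 with PBS and 2 and 3 with CRE of AhRfl/fl cells, and replicates 1 and 3 with PBS and 3 with CRE of Sftpc-Cre;AhRfl/fl cells.

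Muc20 (ENSMUSG00000035638, GRCm38 chromosome 16, 32777419 to 32797435, minus strand) is a membrane mucin that lies tail to tail with Muc4. In AhRfl/fl cells it was at 3.23, 5.17 and 6.94 CPM with PBS and 5.32, 9.89 and 10.4 CPM with CRE, and these groups overlapped. In Sftpc-Cre;AhRfl/fl cells it was at 4.61, 3.86 and 2.75 CPM with PBS and 8.52, 7.68 and 5.42 CPM with CRE. These did not overlap, as for 11.8% of all genes. The ratio of CRE to PBS within a replicate number was 1.50 to 1.99 over the 6 pairs. The log2 fold change was 0.74 ± 0.34 (SE) and 0.95 ± 0.35 in the 2 genotypes (edgeR adjusted p = 0.545 and 0.647), and paired within genotype the adjusted p from edgeR was 0.0221 and 0.0115. Muc20 and Muc4 share 4973 bases on opposite strands, 627 of them in exons of both genes, out of 4027 exon bases of Muc20. The libraries keep strand, but whether the counting used it is not given, so reads of this stretch may belong to either gene. Muc4 had 1922 to 4233 counts and Muc20 203 to 778. The Muc4 ratio of CRE to PBS was below 1 in 5 of 6 pairs.

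To show the sequence next to which these genes start, the 250 bases before the RefSeq start site are printed for Muc1 and Muc20, which were higher with CRE, and for Muc16, which was lower (5′ to 3′ on the strand of the gene, GRCm38.p6). The RefSeq promoter table held 5 of the 10 genes, the other 2 being Muc4 and Spdef. Capitals mark matches on either strand to 4 motifs. These are GCGTG, the core of the AhR response element, and AGGAAG, a site of ETS factors such as Ehf. The others are GGGCGG, the GC box, and TTCNNNGAA, the STAT palindrome.
Muc1, chr3:89228806-89229055, plus strand: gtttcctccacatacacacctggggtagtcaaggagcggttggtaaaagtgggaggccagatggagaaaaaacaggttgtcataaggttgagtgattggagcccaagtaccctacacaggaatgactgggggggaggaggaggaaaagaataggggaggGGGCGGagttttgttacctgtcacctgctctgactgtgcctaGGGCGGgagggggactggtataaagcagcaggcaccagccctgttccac
Muc20, chr16:32797436-32797685, minus strand: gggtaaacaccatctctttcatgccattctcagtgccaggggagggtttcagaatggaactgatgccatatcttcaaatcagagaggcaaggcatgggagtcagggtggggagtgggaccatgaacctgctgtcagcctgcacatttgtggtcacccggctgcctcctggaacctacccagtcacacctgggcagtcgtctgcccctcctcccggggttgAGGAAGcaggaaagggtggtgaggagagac
Muc16, chr9:18674604-18674853, minus strand: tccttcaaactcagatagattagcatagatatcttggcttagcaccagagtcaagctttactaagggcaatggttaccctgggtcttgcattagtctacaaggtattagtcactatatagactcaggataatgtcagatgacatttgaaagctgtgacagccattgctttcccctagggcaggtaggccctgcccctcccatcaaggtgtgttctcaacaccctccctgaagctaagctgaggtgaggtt
Muc1 holds 2 GC boxes, which begin 91 and 49 bases before the start, a motif found in 32.7% of 32851 promoters of this length. Muc20 holds 1 ETS type match, 30 bases before the start (29.5% of promoters), and Muc16 holds none of the 4. The AhR core is not in these 3 windows and occurs in 28.2% of promoters. It is in that of Spdef, 177 bases before the start, beside an ETS type match at 40 bases. None of the 5 windows holds the STAT palindrome (7.02% of promoters), and Muc4 holds no match to any of the 4. No match overlapped another.

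Muc16 (ENSMUSG00000109564, GRCm38 chromosome 9, 18495455 to 18674530, minus strand) encodes a very large membrane mucin, known as the antigen CA125, which mesothelium also makes. It had 78, 68 and 88 counts with PBS and 46, 30 and 23 with CRE in AhRfl/fl cells. In Sftpc-Cre;AhRfl/fl cells it had 59, 265 and 58 counts with PBS and 30, 26 and 19 with CRE. The CRE counts are low, 19 to 46. They may stand for fewer reads, since low counts in these files gather at multiples of 4. In both genotypes every CRE library lay below every PBS library, and over both genotypes together the groups still did not overlap, as for 1.5% of all genes, and for 0.412% with CRE the lower. The log2 fold change was -1.31 ± 0.54 (SE) in AhRfl/fl cells and -2.27 ± 0.55 in Sftpc-Cre;AhRfl/fl cells (edgeR adjusted p = 0.484 and 0.243), and -1.79 ± 0.39 averaged (edgeR adjusted p = 0.0618). Averaged and paired within genotype Muc16 fell by 1.64 on the log2 scale (edgeR adjusted p = 0.0327). Without replicate 2 of Sftpc-Cre;AhRfl/fl cells with PBS, the library with 265 counts, the log2 fold change of that genotype was -1.22 (edgeR adjusted p = 0.568).

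Mesothelial markers moved with Muc16 in part. The 6 markers (Msln, Upk3b, Wt1, Lrrn4, Gpm6a and Upk1b) were all detected and summed to 232 to 271 CPM with PBS and 180 to 244 CPM with CRE in AhRfl/fl cells, and to 211 to 351 and 177 to 274 CPM in Sftpc-Cre;AhRfl/fl cells. None of the 6 was called by edgeR for CRE, their log2 fold changes averaged over genotypes were all below 0, and the median was -0.51. The library with 265 counts of Muc16 had the highest mesothelial sum, 351 CPM, and the highest sum of 6 fibroblast markers, 271 CPM. The CRE library of the same number had the second highest mesothelial sum, 274 CPM, with 26 counts of Muc16. Msln made up much of these sums, at 166, 146 and 132 CPM in replicates 1 to 3 of Sftpc-Cre;AhRfl/fl cells with PBS. Each of the other markers was highest in replicate 2 of that group, such as Lrrn4 at 19.5, 84.0 and 30.5 CPM. With CRE Lrrn4 was again highest in replicate 2, at 53.3 CPM. The part of mesothelial cells and fibroblasts in the Muc16 difference was not tested.

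**Figure D3:**
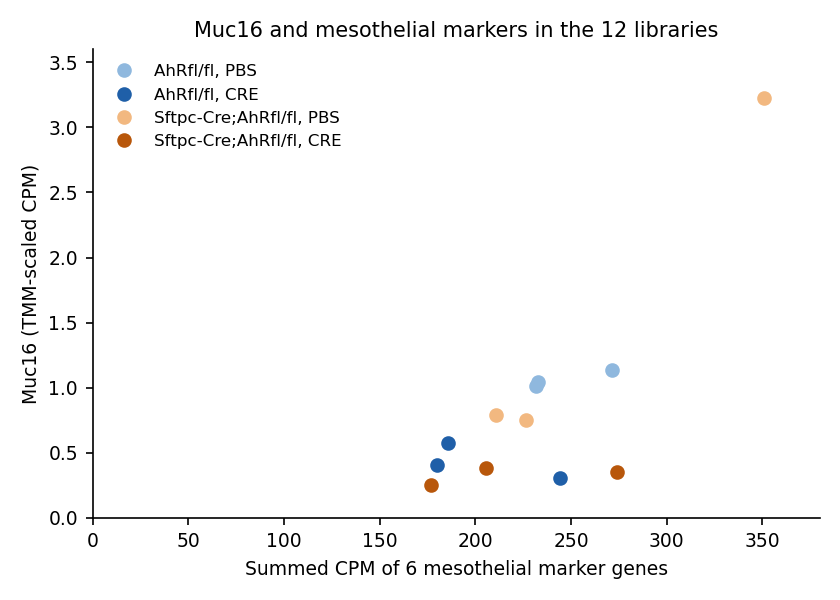
TMM-scaled CPM of Muc16 against the summed CPM of 6 mesothelial markers, with 1 point per library, coloured by group. Msln makes up much of each sum. The 6 CRE libraries lie at 0.249 to 0.573 CPM of Muc16 over mesothelial sums of 177 to 274 CPM, and the single point at 3.22 CPM has the highest sum, 351 CPM.

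Scgb1a1 (ENSMUSG00000024653, GRCm38 chromosome 19, 9083636 to 9087958, minus strand) had 4693, 5306 and 7593 CPM with PBS and 3969, 3959 and 6099 CPM with CRE in AhRfl/fl cells. In Sftpc-Cre;AhRfl/fl cells it had 8069, 4937 and 4815 CPM with PBS and 6662, 4595 and 4286 CPM with CRE. The groups overlapped in both genotypes, since libraries of different numbers differed by more than the treatments did. Within a replicate number the ratio of CRE to PBS was 0.746 to 0.846 in AhRfl/fl cells and 0.826 to 0.931 in Sftpc-Cre;AhRfl/fl cells. The unpaired log2 fold change was -0.33 ± 0.27 (SE) and -0.20 ± 0.27 (edgeR adjusted p = 0.801 and 1), and that of Sftpc-Cre;AhRfl/fl cells turned to 0.087 without replicate 1 of its PBS libraries. Paired within genotype Scgb1a1 fell by 0.33 on the log2 scale in AhRfl/fl cells (edgeR adjusted p = 0.0141), and the value was -0.18 in Sftpc-Cre;AhRfl/fl cells (edgeR adjusted p = 0.101). The paired difference between genotypes in this response was 0.14 ± 0.06 (edgeR adjusted p = 0.551).

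Other club-cell genes went in both directions. Each of the 9 club-cell markers had counts, but Upk3a had only 4, all in replicate 1 of AhRfl/fl cells with CRE. The 9 summed to 135 to 217 CPM with PBS and 224 to 326 CPM with CRE in AhRfl/fl cells. In Sftpc-Cre;AhRfl/fl cells the sums were 142 to 174 and 233 to 274 CPM. Of 8 tested, edgeR called 2 higher and 0 lower with CRE averaged over genotypes, against 1.1% of all genes in either direction. The 2 were the detoxifying enzymes Gsta3 (log2 fold change 0.98) and Aldh1a7 (0.76). Gsta3 alone had a mean of 85.9 CPM with PBS and 164 CPM with CRE in AhRfl/fl cells, and 73.1 and 148 CPM in Sftpc-Cre;AhRfl/fl cells, and so makes up much of the sum. Over the 8, 5 had a log2 fold change above 0 and 3 below it, Cckar (-0.26), Scgb3a1 (-0.21) and Cyp2f2 (-0.06), none of them called. In the same comparison, with its 1.1% of all genes called, 2 of 6 markers of type I alveolar cells were called lower, Ager and Rtkn2. Of 8 AT2 markers 1 was called lower, Etv5, while 2 of the 8 were above 0 and the median log2 fold change was -0.07. Of 8 leukocyte markers 1 was called higher, Cd14, but only 4 of the 8 were above 0 and the median was -0.005. These marker genes were named after their values were seen. The part of these shifts in the values of Scgb1a1, Muc1 and Muc20 was not tested. Scgb3a2 (ENSMUSG00000038791, chromosome 18) had 179 to 262 counts with PBS and 182 to 221 with CRE in AhRfl/fl cells, and 192 to 283 and 154 to 280 counts in Sftpc-Cre;AhRfl/fl cells. Its log2 fold change was -0.10 ± 0.26 (SE) and 0.01 ± 0.26 (edgeR adjusted p = 0.976 and 1).

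The genes that mark goblet cells were barely detected. Muc5ac (ENSMUSG00000037974, GRCm38 chromosome 7, 141788972 to 141819231, plus strand), the gel mucin of surface goblet cells, had 14, 8 and 14 counts with PBS and 4, 0 and 0 with CRE in AhRfl/fl cells. In Sftpc-Cre;AhRfl/fl cells it had 15, 4 and 4 counts with PBS and 17, 14 and 8 with CRE. With CRE the AhRfl/fl libraries thus lay below those of Sftpc-Cre;AhRfl/fl cells without overlap, as for 11% of all genes in either direction. Low counts in these files gather at multiples of 4, which make up 36.6% of all counts from 1 to 40 against 25% of the whole numbers in that range. A count of 4 may therefore be 1 read, and the differences in Muc5ac rest on a few reads. The fitted log2 fold change was -3.14 ± 1.17 (SE) for CRE in AhRfl/fl cells and 0.79 ± 1.02 in Sftpc-Cre;AhRfl/fl cells (edgeR adjusted p = 0.422 and 1). The interaction had an unadjusted p of 0.0280 and an adjusted p of 1 in edgeR.

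Muc5b (ENSMUSG00000066108, GRCm38 chromosome 7, 141839070 to 141873084, plus strand), the gel mucin of glands and club cells, had 16, 0 and 30 counts with PBS and 0, 23 and 30 with CRE in AhRfl/fl cells. In Sftpc-Cre;AhRfl/fl cells it had 9, 12 and 16 counts with PBS and 8, 8 and 0 with CRE. Its groups overlapped in every comparison but CRE in Sftpc-Cre;AhRfl/fl cells, where 11.8% of all genes did not overlap. There the CRE libraries (8 counts at most) lay just below the PBS libraries (9 at least). The log2 fold change was -1.16 ± 1.56 (SE, edgeR adjusted p = 1). Clca1 (ENSMUSG00000028255, GRCm38 chromosome 3, 145003817 to 145032776, minus strand) had 8 counts in replicate 3 of AhRfl/fl cells with PBS, 4 in replicate 3 with CRE, and 0 in the other 10 libraries. A count of 0 allows up to 3 counts, 0.0365 to 0.0446 CPM, or 12 counts, 0.146 to 0.178 CPM, if a read is worth 4, and these limits cover counting error only. Spdef (ENSMUSG00000024215, GRCm38 chromosome 17, 27714352 to 27728955, minus strand) had 24 to 76 counts in all libraries. Its counts were 39, 60 and 59 with PBS and 42, 76 and 42 with CRE in AhRfl/fl cells, and 53, 46 and 68 with PBS and 57, 39 and 24 with CRE in Sftpc-Cre;AhRfl/fl cells, with overlap throughout.

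**Figure D4:**
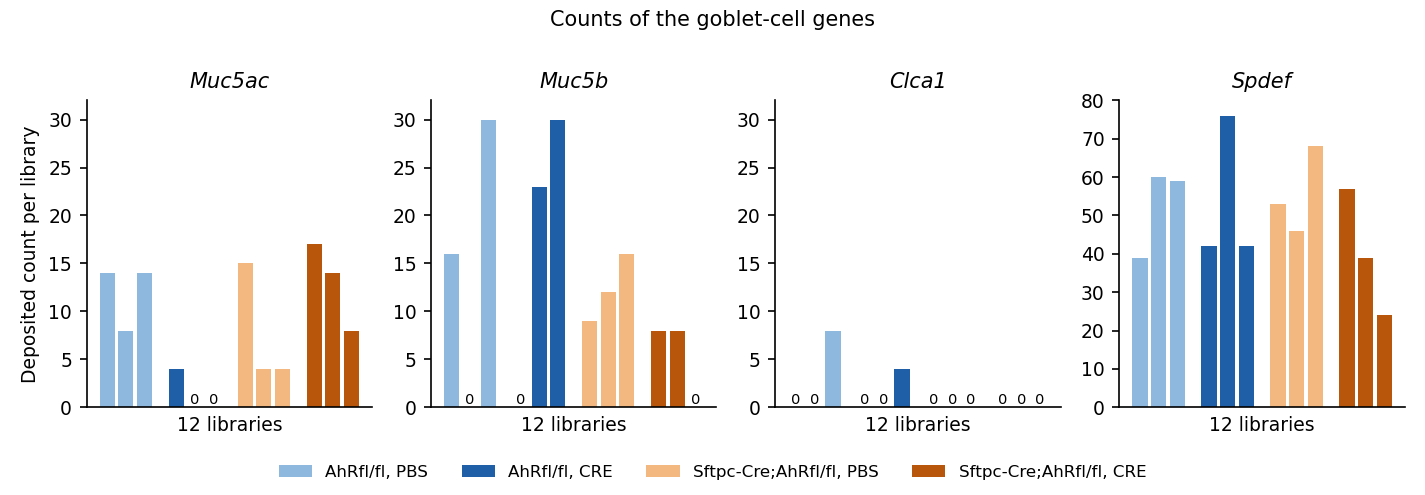
Deposited counts of Muc5ac, Muc5b, Clca1 and Spdef, with 1 bar per library in the order of replicates 1 to 3 within each group and a 0 written where a library had no count. No library holds more than 30 counts of Muc5ac, Muc5b or Clca1, and Spdef runs from 24 to 76 counts on its own axis.

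The second question was whether these genes differed between the genotypes. No group carries Cre without the floxed gene. Loss of AhR, Cre itself and the mouse line therefore cannot be told apart. Muc4, a membrane mucin of ciliated and secretory airway cells, lay lower in Sftpc-Cre;AhRfl/fl cells under CRE by the looser rule but not by adjusted p. Muc5ac, with its few counts, was the other gene that met that rule. edgeR called 0 of 9 under PBS (0.15% of all genes), 0 of 9 under CRE (0.17%) and 0 of 9 averaged over treatments (0.631%). At an unadjusted p below 0.05 there were 0, 2 and 1, against 8.37%, 5.95% and 9.93% of all genes. limma with the same adjustment called 0 under PBS and 0 under CRE, and DESeq2 called 0, 0 and 1 (Muc4), against 0.998%, 0.742% and 2.79% of all genes. Under PBS the groups overlapped for 9 of 9 (14% of all genes did not), and averaged over treatments for 9 of 9 (1.19% did not). Under CRE 1 of 9 lay higher and 1 lower without overlap, against 11% of all genes. Under the looser rule 0 of 9 passed under PBS (4.1% of all genes) and 2 under CRE, Muc4 and Muc5ac (3.42%). For the interaction of CRE with genotype edgeR called 0 of 9 and 0 of all genes, also in pairs within genotype, with 1 of 9 at an unadjusted p below 0.05 (3.7% of all genes), and DESeq2 called 0 of 9 and 0.119% of all genes.

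Muc4 (ENSMUSG00000079620, GRCm38 chromosome 16, 32735886 to 32782391, plus strand) was at 35.7, 36.4 and 54.5 CPM in AhRfl/fl cells and 36.0, 28.6 and 32.4 CPM in Sftpc-Cre;AhRfl/fl cells with PBS, which overlapped. With CRE it was at 33.5, 51.8 and 49.6 CPM in AhRfl/fl cells and 27.6, 26.3 and 31.7 CPM in Sftpc-Cre;AhRfl/fl cells. Here every Sftpc-Cre;AhRfl/fl library lay below every AhRfl/fl library, as for 11% of all genes in either direction. The log2 fold change was -0.38 ± 0.20 (SE) under PBS and -0.66 ± 0.20 under CRE (edgeR adjusted p = 0.649 and 0.583), and -0.52 ± 0.14 averaged over treatments (edgeR adjusted p = 0.192). The response of Muc4 to CRE was 0.09 ± 0.20 in AhRfl/fl cells and -0.18 ± 0.20 in Sftpc-Cre;AhRfl/fl cells, and the interaction was -0.27 ± 0.28 (edgeR adjusted p = 1). Ciliated-cell markers went the other way: the 10 markers, all detected, summed to 208 to 317 CPM in AhRfl/fl cells and 265 to 422 CPM in Sftpc-Cre;AhRfl/fl cells with CRE, and all 10 had a log2 fold change above 0 averaged over treatments. Of the 10, edgeR called 0, and 7 had an unadjusted p below 0.05, against 9.93% of all genes. Under CRE 9 of 10 were above 0 and 4 met the looser rule, against 3.42% of all genes. Their part in the Muc4 values was not tested.

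**Figure D5:**
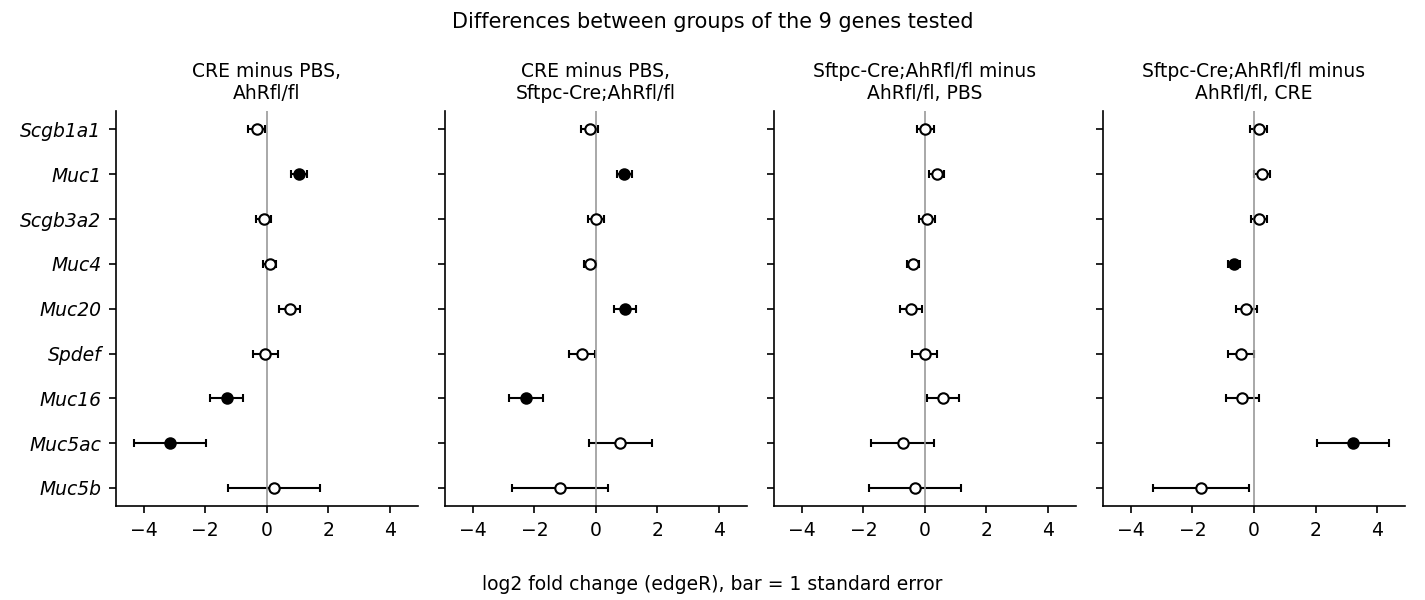
edgeR log2 fold changes of the 9 genes tested in 4 comparisons, with bars of 1 SE and filled points for genes that met the looser limma rule. Muc1 sits near 1 in both CRE comparisons, Muc16 lies below 0 in both, Muc4 lies at -0.66 between the genotypes under CRE, and the wide bars of Muc5ac and Muc5b belong to genes with 0 to 30 counts.

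None of the log2 fold changes between genotypes of the other genes had an unadjusted edgeR p below 0.05, apart from that of Muc5ac under CRE, and several were as large as their errors or larger. Muc1 differed by 0.38 ± 0.25 (SE) under PBS and 0.26 ± 0.25 under CRE, and its groups overlapped. Muc20 differed by -0.45 ± 0.34 and -0.25 ± 0.34, Scgb1a1 by 0.02 ± 0.27 and 0.15 ± 0.27, Scgb3a2 by 0.06 ± 0.26 and 0.17 ± 0.26, and Spdef by -0.01 ± 0.41 and -0.42 ± 0.41. Muc16 differed by 0.58 ± 0.53 under PBS, where replicate 2 of Sftpc-Cre;AhRfl/fl cells stood alone, and by -0.38 ± 0.54 under CRE. Muc5b differed by -0.33 ± 1.50 and -1.73 ± 1.56, and Muc5ac by -0.72 ± 1.03 and 3.21 ± 1.17 (edgeR adjusted p = 0.763 under CRE).

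Genes that work with mucins were read from 6 further lists. Of 11 other mucins 8 passed the filter and edgeR called 0 in each of the 4 comparisons, with 0 at an unadjusted p below 0.05. Muc2, the gel mucin of the intestine, had 0 to 34 counts, and Muc13, another mucin of the gut, had 4 to 51. Of 12 folding genes 10 passed the filter. With CRE edgeR called 0 of them in either genotype, and 5 (Creb3l4, Kdelr3, Pdia5, Pdia6 and Xbp1) had an unadjusted p below 0.05 in AhRfl/fl cells, all with CRE libraries below PBS libraries without overlap, against 9.36% and 16.5% of all genes. Such a p was found for 1 of 10 with CRE in Sftpc-Cre;AhRfl/fl cells (6.48% of all genes), and between genotypes 1 under PBS (8.37%) and 3 under CRE (5.95%). The 4 genes other than Creb3l4 were named after their values were seen, with log2 fold changes of -0.14 to -0.47. Agr2, the disulfide isomerase that mucin folding needs, had 0 to 16 counts and Ern2, the stress sensor of mucous cells, 0 to 4 counts, and neither passed. Agr3, a relative of Agr2 found in ciliated cells, was at 1.11, 1.27 and 1.58 CPM in AhRfl/fl cells and 0.241, 0.205 and 0.223 CPM in Sftpc-Cre;AhRfl/fl cells with CRE. It was the 1 folding gene that edgeR called between genotypes, with log2 fold changes of -2.56 ± 0.35 (SE) under CRE (edgeR adjusted p = 0.0137) and -2.02 ± 0.24 averaged over treatments (edgeR adjusted p = 0.00312). Under PBS it met the looser rule, with a log2 fold change of -1.48 ± 0.33 (SE, edgeR adjusted p = 0.193). The 10 ciliated-cell markers given with Muc4 went the other way, all with a log2 fold change above 0 averaged over treatments. Their part in the Agr3 values was not tested.

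The call of Agr3 under CRE was lost without any 1 of 5 libraries, replicates 2 and 3 of AhRfl/fl cells and replicates 1, 2 and 3 of Sftpc-Cre;AhRfl/fl cells with CRE (edgeR adjusted p = 0.0633 to 0.0948). Creb3l4, a transcription factor of the secretory pathway, was at 2.92, 3.09 and 3.70 CPM with PBS and 1.57, 1.49 and 1.80 CPM with CRE in AhRfl/fl cells. It met the looser rule there and, paired within genotype, fell by 1.00 on the log2 scale (edgeR adjusted p = 0.0252). It also met the rule between genotypes under CRE, with a log2 fold change of 0.63 ± 0.23 (SE, edgeR adjusted p = 0.763).

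Of 13 regulators of secretory cells, all tested, edgeR called 1 with CRE in each genotype, the ETS factor Ehf. It called 0.233% of all genes in AhRfl/fl cells and 0.262% in Sftpc-Cre;AhRfl/fl cells. Ehf was at 64.0, 77.0 and 77.2 CPM with PBS and 137, 199 and 184 CPM with CRE in AhRfl/fl cells, and at 63.1, 59.8 and 64.7 and 122, 134 and 167 CPM in Sftpc-Cre;AhRfl/fl cells. Its log2 fold change was 1.25 ± 0.15 (SE) and 1.17 ± 0.15 (edgeR adjusted p = 0.00666 and 0.00894). The call in Sftpc-Cre;AhRfl/fl cells was lost without replicate 2 of its PBS libraries (edgeR adjusted p = 0.0576). Foxa3, a goblet-cell forkhead factor, had 17 to 72 counts and was not called. Of 24 genes of O-glycosylation and 13 of granule release, all tested, edgeR called 0 in each of the 4 comparisons. At an unadjusted p below 0.05 there were 3, 0, 1 and 1 of the glycosylation genes and 3, 2, 1 and 0 of the release genes, in the order CRE in AhRfl/fl cells, CRE in Sftpc-Cre;AhRfl/fl cells, genotype under PBS and genotype under CRE, beside 9.36%, 6.48%, 8.37% and 5.95% of all genes. For the regulators these counts were 3, 1, 1 and 0 of 13. St6galnac2, a sialyltransferase, was at 27.3, 42.2 and 33.8 CPM with PBS and 19.5, 27.5 and 24.7 CPM with CRE in AhRfl/fl cells and, paired within genotype, fell by 0.52 on the log2 scale (edgeR adjusted p = 0.0150).

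Galnt5, which starts O-glycan chains, met the looser rule with 0, 7 and 0 counts with PBS and 17, 41 and 31 with CRE in AhRfl/fl cells, and also between genotypes under PBS, with 52, 27 and 14 counts in Sftpc-Cre;AhRfl/fl cells. The fitted log2 fold change was 3.49 ± 1.19 (SE) in both (edgeR adjusted p = 0.386 and 0.482). Of 20 proteins secreted with mucus 15 were tested and edgeR called 0 in each of the 4 comparisons, against 0, 3, 2 and 1 at an unadjusted p below 0.05, where the shares of all genes are those just given. The looser rule was met by the trefoil peptide Tff1 and by Clca3a2 for CRE in Sftpc-Cre;AhRfl/fl cells, by Tff1 between genotypes under CRE, and by lactotransferrin (Ltf) between genotypes under PBS. Tff1 was at 2.45, 2.02 and 3.34 CPM with PBS and 6.13, 3.42 and 4.75 CPM with CRE in Sftpc-Cre;AhRfl/fl cells. It showed no overlap there (11.8% of all genes). Its log2 fold change was 0.87 ± 0.30 (SE) for CRE and 1.02 ± 0.30 between genotypes under CRE (edgeR adjusted p = 0.604 and 0.572). Clca3a2 had 15, 15 and 0 counts with PBS and 19, 90 and 46 with CRE (log2 fold change 2.45 ± 1.01, edgeR adjusted p = 0.720). Ltf had 387, 819 and 959 counts in AhRfl/fl cells and 262, 382 and 208 in Sftpc-Cre;AhRfl/fl cells (log2 fold change -1.46 ± 0.51, edgeR adjusted p = 0.489). Tff2 had 0 to 56 counts and Bpifb1 0 to 476 counts, with the lowest of Bpifb1 again in replicate 1 of AhRfl/fl cells.

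The genes whose log2 CPM ran most alike to a member over the 12 libraries are given as a description, since libraries share genotype, treatment and replicate number. For Muc1 they were Ssbp1, Tbc1d2b and Hnrnpl (Pearson r = 0.95, 0.95 and 0.93). For Muc20 they were Gm17509, Mmp15 and Cd14 (0.91, 0.91 and 0.91), for Muc4 Foxq1, 1810010H24Rik and Arhgap40 (0.88, 0.87 and 0.86), and for Muc16 Tfdp2, Rab31 and Ankrd34a (0.91, 0.89 and 0.89). For Scgb1a1 they were Lrrc23, Ffar4 and Spa17 (0.95, 0.94 and 0.93), and for Scgb3a2 Pllp, Spata18 and Smim5 (0.92, 0.91 and 0.91). Spdef ran closest to Gm44430, Lmntd2 and Pick1 (0.93, 0.90 and 0.87), from 24 to 76 counts. Muc5ac ran closest to AC151284.2, Gm43584 and Adnp (0.90, 0.86 and 0.84), and Muc5b to Gm47862, Zfp512b and Acot6 (0.86, 0.84 and 0.81), but at these few counts a likeness carries little. Within the set the highest values were those of Muc1 with Muc20 and of Scgb1a1 with Scgb3a2, both 0.72.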

How the data were processed

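RNA-seq of 12 libraries, 3 for each of 4 groups taken from the sample labels, was used. Stranded mRNA libraries were aligned by the authors with STAR 2.7.2b to GRCm38, annotated with Partek and RefSeq, and quantified with Salmon. The deposited counts are whole numbers per gene, not normalized, and how they were rounded is not given. The deposited FPKM were made by the authors from these data and are written as 0.0001 where the count is 0, which was read as 0. All 55450 gene IDs were found in GENCODE M21, whose positions are given.

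Counts were scaled by TMM (factors 0.969 to 1.03), filtered with filterByExpr at a minimum count of 10, and tested with edgeR 4.0.16 (R 4.3.3, quasi-likelihood, 1 fit of 4 group means to 12 libraries, two-sided, threshold 0.05 after Benjamini-Hochberg adjustment over 20612 genes). Standard errors are the log2 fold change divided by the root of F. The looser rule, computed with limma 3.58.1 (trend, prior count 2, log2 CPM), follows the thresholds of the study's methods. The alternatives were DESeq2 1.42.0, limma with adjustment, DESeq2 size factors, no filter, only the libraries compared, replicate blocks and each library left out. Scripts were tested on simulated data. Figures were drawn with matplotlib 3.10.9 in Python 3.11.15. The members, gene lists and tests were chosen with earlier results of these data known. Named are all members, list genes that edgeR called or that met the looser rule, and 9 list genes fixed by name. Of these, 1 list gene is not reported here. Fold changes of members that were neither called nor met the looser rule, and of marker genes, were added after values were seen.

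Replicate numbers come from the sample labels. Deviations from group means over 11316 genes correlated between CRE and PBS libraries of the same number at 0.679, 0.360 and 0.582 in AhRfl/fl cells and 0.518, 0.495 and 0.389 in Sftpc-Cre;AhRfl/fl cells, so these comparisons were also fitted in pairs within genotype. Between genotypes the same correlations were 0.393, 0.0519 and 0.135 with PBS and 0.297, -0.0836 and 0.0176 with CRE. The labels link these samples only by number. The value of replicate 1 with PBS, 0.393, was nonetheless above the lowest within a genotype, 0.360. Replicate 1 also had the highest summed leukocyte markers of each group, 210 to 290 CPM, against 79.1 to 168 CPM in replicates 2 and 3. What the replicate 1 libraries share was not tested.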

Additional observations from a re-analysis of the deposited data

How the results depend on the processing

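Counts of called members moved with the test and with the pairing. edgeR called 0 of 9 for CRE in AhRfl/fl cells, against 1 with DESeq2 (Muc1) and 3 with the replicate block within genotype (Muc1, Muc20 and Scgb1a1). For CRE in Sftpc-Cre;AhRfl/fl cells it called 0, against 2 with DESeq2 (Muc1 and Muc16) and 2 with the replicate block within genotype (Muc1 and Muc20). Averaged over genotypes it called 1 (Muc1), against 3 with DESeq2 (Muc1, Muc16 and Muc20), 4 with the replicate block within genotype, and 0 to 1 with a library left out. Without replicate 1 or 3 of Sftpc-Cre;AhRfl/fl cells with PBS the 1 called was Muc16 in place of Muc1. For genotype averaged over treatments the count was 0, against 1 with DESeq2 (Muc4). Under the looser rule the count for genotype under CRE was 2, against 1 (Muc4) with only the libraries compared. An additive block of replicate number changed no count of members. For the genotypes, where the labels link the samples only by number, it called 0 of 9 as well. The log2 fold change of Scgb1a1 for CRE in Sftpc-Cre;AhRfl/fl cells reversed, from -0.20 to 0.087, without replicate 1 of its PBS libraries (-0.42 to 0.087 over the libraries left out). Over the values of single genes, 504 of 542 alternatives left the call and its direction as they were, 21 gained a call, 16 lost one and 1 reversed. Most of these values were not called to begin with, so the 504 say little about how stable a call is. Agr3 under CRE and Ehf in each genotype were not called with only the libraries compared (edgeR adjusted p = 0.0808, 0.0570 and 0.0509). The cause of these moves was not tested. Muc5ac, Muc5b and Clca1 had 0 to 30 counts, and their fold changes rest on few reads.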
